A study of Mus musculus with 3264 samples.

Results

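The transcripts of the NF-kB transcription factors and of the proteins that hold them back were followed in single mouse cells. The 9 genes are Nfkb1, Nfkb2, Rela, Rel, Relb, Nfkbia, Nfkbib, Nfkbiz and Tnfaip3. They were taken by name, and all 9 had counts in both deposited tables, which list 24781 genes for cell lines and 25051 for blood cells. Each library is 1 well meant to hold 1 cell. The cells were a mixture of 3 lines, labelled leukemia, T and hematopoietic progenitor (HPC), with the strain given as NA, or blood mononuclear cells (PBMC) from C57BL/6J mice. ALPS, a robot that finds living cells in images and lifts them singly, or fluorescence-activated cell sorting (FACS) put the cells into wells. The groups are ALPS picks at random (4 plates), ALPS picks of a named type (target wells, 4 plates), FACS wells of a named type (2 plates), ALPS picks after time-lapse imaging (16 plates) and PBMC picked after time-lapse imaging (8 plates). The labels name no treatment besides the way of picking, and not which lines were used, how long imaging lasted or how many mice gave blood.

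In resting cells NF-kB dimers sit in the cytoplasm, bound by inhibitor proteins. Signals from Tnf, Toll-like and antigen receptors activate IkappaB kinases, which mark the inhibitor for destruction and free the dimer to enter the nucleus. Among the genes it switches on are its own inhibitors and precursors, so that Nfkbia, Tnfaip3, Nfkb2, Relb and Rel are both parts and targets of the pathway. In lymphocytes the pathway is known for survival and activation, and in myeloid cells for inflammatory cytokines.

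RefSeq promoters of the build GRCm38.p6, the assembly called mm10 in the processing notes, were found for 6 of the 9 members: Nfkb2, Rela, Rel, Nfkbia, Nfkbib and Tnfaip3. The 250 bases before each listed start were searched on both strands for the 10-base kappa B consensus, the motif read by NF-kB dimers. The motif occurred in 4 of the 6 (Nfkb2, Rel, Nfkbia and Tnfaip3), and the windows of Rela and Nfkbib held no match. A match was present for 4.46% of all 27025 genes with a listed promoter, and for 5.38% of those with a count in the cell lines. A match is a run of letters and not a shown binding site. The 130 bases before the start of Nfkbia, Rel and Tnfaip3 are printed, all from the minus strand, because the levels of these members set apart lines, plates or blood cells. Capitals mark the matches.

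Nfkbia promoter, chr12:55492648-55492777: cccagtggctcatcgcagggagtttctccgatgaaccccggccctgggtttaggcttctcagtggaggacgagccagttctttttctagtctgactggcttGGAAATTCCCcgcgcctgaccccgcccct

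Rel promoter, chr11:23770970-23771099: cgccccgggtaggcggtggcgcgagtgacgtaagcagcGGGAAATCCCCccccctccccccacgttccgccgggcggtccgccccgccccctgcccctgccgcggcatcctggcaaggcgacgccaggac

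Tnfaip3 promoter, chr10:19015411-19015540: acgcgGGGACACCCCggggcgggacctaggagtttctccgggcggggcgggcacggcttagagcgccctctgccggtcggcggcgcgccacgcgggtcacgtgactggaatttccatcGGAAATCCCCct

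The match of Nfkbia starts 29 bases before the gene start, and those of Rel overlap at 92 and 91 bases before it. Of the matches of Tnfaip3 the nearer one starts 12 bases before the start. At the first of its listed starts Nfkb2 holds GGGAATTCCC 39 bases ahead, overlapped by GGAATTCCCC at 38, and GGGGCTTTCC at 11.

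RNA matched the labelled type in target wells and not in FACS wells. All but 3 target wells (labelled HPC, on plate 4) had the profile of their own label when set against the other plates with the NF-kB genes left out. FACS wells of each label fell into all 3 profiles, for example 23 leukemia, 24 T and 19 HPC among those labelled leukemia. FACS, random and time-lapse wells are therefore grouped by nearest profile. A plate then held 30 to 34 leukemia, 24 to 33 T and 17 to 21 HPC target wells, 22 to 28, 17 to 44 and 21 to 32 random wells, 31 to 32, 32 and 24 to 28 FACS wells, and 14 to 39, 6 to 30 and 10 to 24 time-lapse wells. Totals ran from 10004.8 to 140363 counts per cell line well. Levels are CPM, counts of the summed wells of a plate scaled to a total of 1000000. Since the labels name no culture or animal, each group is 1 sample and no p-value is given. The plate is a technical batch, and its range or SD stands beside each mean. A gene was called higher or lower at a 2-fold difference in log2 (CPM + 1) with 1 direction on every plate (or, between groups that share no plate, with no overlap of plate values), if it reached 10 CPM in either group.

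Nfkb1, which encodes the precursor of the p50 subunit (chromosome 3, 135584655 to 135691969), was highest in T wells and lowest in HPC wells. In target wells its plates gave 143.9, 145.03, 161.8 and 138.7 CPM in T (147.3 ± 9.997, SD, n = 4 plates), 108.2, 96.8, 77.9 and 80.6 in leukemia (90.8 ± 14.3) and 52.5, 52.1, 30.9 and 74 in HPC (52.4 ± 17.6). The plates of the 3 lines did not overlap. A count of Nfkb1 was found in 98.3% of T wells (94.1 to 99.8), 91.3% of leukemia wells (84.9 to 95.6) and 78.1% of HPC wells (66.9 to 86.9), with Clopper-Pearson 95% intervals in brackets. These intervals take each well as 1 draw from its group and leave out the spread between plates. Thinned to 20000 counts per well, the shares were 95.8%, 85.3% and 53.1%. That left out 1 T, 10 leukemia and 9 HPC wells as too shallow. HPC was lower than T by the rule (log2 difference -1.54, plates -2.35 to -0.90). T against leukemia (0.70, plates 0.41 to 1.05) and HPC against leukemia (-0.83, plates -1.30 to -0.12) stayed under 2-fold. The -0.12 was of plate 4, which held the 3 HPC wells of another profile. T cell markers of its HPC wells summed to 522.1 CPM, against 44.4 to 71.9 on the other plates. Those wells are kept in the values here.

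Nfkb2, precursor of the p52 subunit of the non-canonical branch (chromosome 19, 46300994 to 46312400), was highest in T wells and varied there from plate to plate. It gave 55, 74, 24.8 and 22.6 CPM on the 4 target T plates, 13.5, 13.5, 6.07 and 10.4 in leukemia and 11.9, 7.04, 12.7 and 12.1 in HPC. Every T plate lay above every leukemia and HPC plate, and T plates 1 and 2 lay above plates 3 and 4. The log2 difference was 1.81 for T against leukemia (plates 1.04 to 2.37) and -1.78 for HPC against T (plates -3.22 to -0.85), both past the rule. A count was found in 77.5% of T wells (69 to 84.6), 29.4% of leukemia wells (21.6 to 38.1) and 26% of HPC wells (16.5 to 37.6). Thinned to 20000 counts per well, the shares were 52.9%, 22.4% and 17.2%.

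Rel, the c-Rel subunit known from activated lymphocytes and myeloid cells (chromosome 11, 23736847 to 23770969), was found mainly in HPC wells. Its HPC target plates gave 16.9, 14.1, 20.01 and 10.6 CPM, its leukemia plates 4.23, 1.94, 2.02 and 2.84 and its T plates 4.30, 1.68, 1.08 and 1.33. No HPC plate overlapped either other line, though the sums are small, 38 counts in HPC, 12 in leukemia and 10 in T. Rel was called higher in HPC than in leukemia (log2 difference 2.13, plates 1.59 to 2.80) and than in T (2.48, plates 1.76 to 3.34). Unthinned, it was counted in 35.6% of HPC wells (24.7 to 47.7), 9.52% of leukemia wells (5.02 to 16) and 8.33% of T wells (4.07 to 14.8). Thinned to 20000 counts per well, with 9 HPC, 10 leukemia and 1 T wells too shallow and left out, the shares were 25% (15 to 37.4), 4.31% (1.41 to 9.77) and 5.04% (1.87 to 10.7).

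Rela, the p65 subunit of the main inducible dimer (chromosome 19, 5637442 to 5648134), stayed within 2-fold between the lines. Its target means were 36.6 ± 6.52 CPM in leukemia, 31.8 ± 4.69 in T and 40.9 ± 7.25 in HPC (SD, n = 4 plates), and the plates of the 3 lines overlapped. Relb, the partner of p52 (chromosome 7, 19606217 to 19629438), gave 25.8, 17.7, 5.39 and 3.98 CPM on the T plates, 3.94 ± 1.13 in leukemia and 7.73 ± 4.65 in HPC. Plates 1 and 2 of the T wells were again the high ones, and Relb met the rule in no comparison of target wells.

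Among the inhibitors Nfkbiz was highest in HPC wells. It encodes IkappaB-zeta, an inducible nuclear protein that acts on a set of secondary NF-kB targets (chromosome 16, 55811375 to 55838954). Its HPC target plates gave 23.7, 23.9, 38.2 and 27.2 CPM, those of leukemia 5.92, 9.68, 5.06 and 10.4 and those of T 2.58, 5.04, 3.24 and 3.32. HPC stood clear of both lines on all plates. The log2 difference of HPC was 1.76 from leukemia (plates 1.22 to 2.69) and 2.69 from T (plates 2.04 to 3.21), both called. A count was found in 45.2% of HPC wells (33.5 to 57.3), 22.2% of leukemia wells (15.3 to 30.5) and 12.5% of T wells (7.17 to 19.8). Thinned to 20000 counts per well, the shares were 28.1%, 12.9% and 5.88%.

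Nfkbia encodes IkappaB-alpha, the rapidly rebuilt inhibitor of Rela dimers (chromosome 12, 55489409 to 55492647). It gave 70.5, 72.3, 32.9 and 33.8 CPM on the T plates, 17.7, 29, 15.7 and 27.5 in leukemia and 37.3, 46.5, 27.3 and 37.7 in HPC. T was called higher than leukemia (log2 difference 1.13, plates 0.29 to 1.93), a call that was lost without plate 1 (0.87). Nfkbib, encoding IkappaB-beta (chromosome 7, 28758251 to 28766644), gave 39 ± 4.37 CPM in leukemia, 33.4 ± 5.34 in T and 31.5 ± 5.01 in HPC, with overlapping plates. Tnfaip3, the A20 ubiquitin editor that shuts off receptor signals (chromosome 10, 19000910 to 19015410), had means under 10 CPM in all 3 lines (2.06 ± 0.981 in leukemia, 4.64 ± 4.58 in T, 6.04 ± 3.44 in HPC) and was not compared.

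By the rule, 2 of the 6 members that reached 10 CPM differed between T and leukemia target wells (Nfkb2 and Nfkbia higher), beside 27% of all genes tested (14.8% higher, 12.2% lower). Between HPC and leukemia it was 2 of 7 (Rel and Nfkbiz higher), beside 25.8% of all genes tested (13.1% higher, 12.7% lower). Between HPC and T it was 4 of 8 (Rel and Nfkbiz higher, Nfkb1 and Nfkb2 lower), beside 28.5% of all genes tested (13.2% higher, 15.3% lower). In the comparisons with leukemia the members' shares are near those of all genes, so nothing is particular to the set there. The 3 comparisons share their groups of wells.

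**Figure D1:**
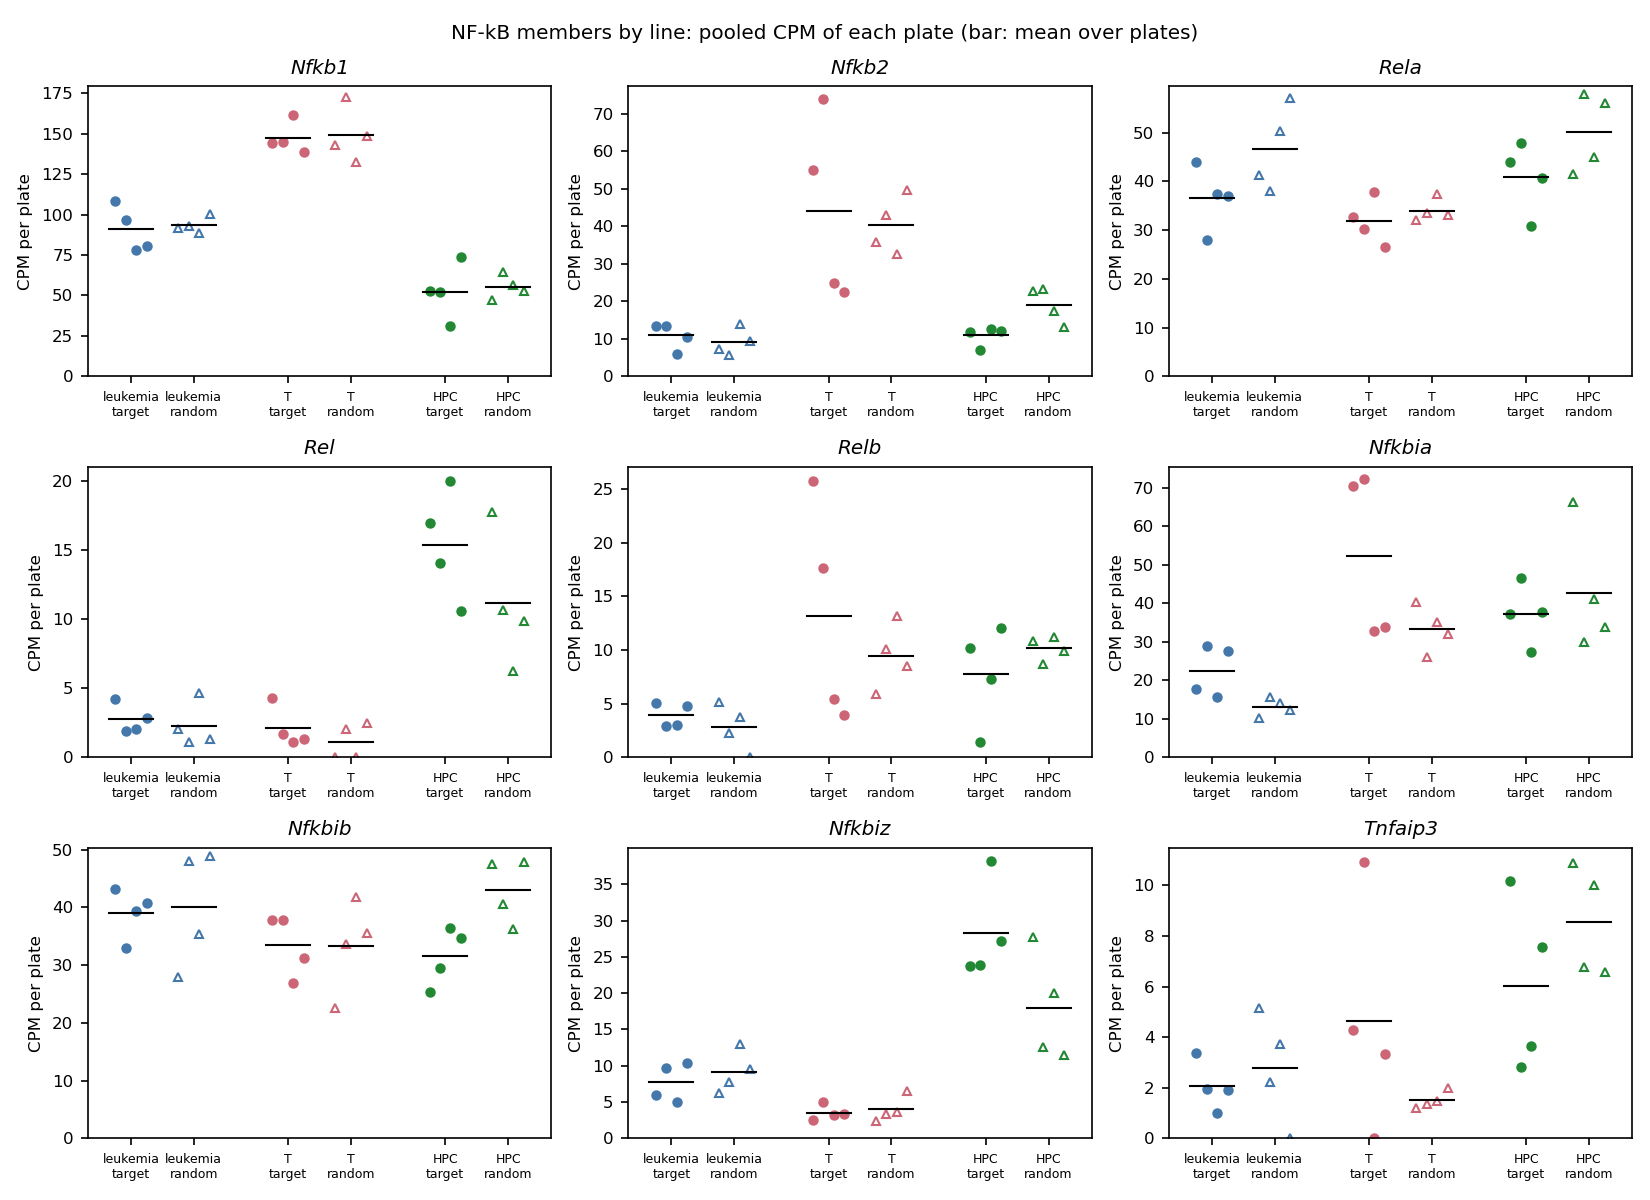
CPM of the 9 members on each plate (vertical axis) in target wells by label (filled circles) and random wells by nearest profile (open triangles) of the leukemia (blue), T (red) and HPC (green) lines, with bars at the mean over 4 plates. Nfkb1 is ordered T, leukemia, HPC in both kinds of well, Nfkb2 is high in T, Rel and Nfkbiz are high in HPC, and Rela and Nfkbib overlap.

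Random picks, on other plates, gave calls of the same members for T against leukemia and for HPC against T. Nfkb2 was at 40.2 ± 7.69 CPM in T and 9.08 ± 3.64 in leukemia (log2 difference 2.08, plates 1.16 to 2.74), and Nfkbia at 33.4 ± 5.96 and 13 ± 2.28 (1.29, plates 0.71 to 1.87). These were 2 of 5 members, beside 27.7% of all genes tested (14.9% higher, 12.8% lower). HPC against T called Rel (11.1 ± 4.83 against 1.13 ± 1.32 CPM) and Nfkbiz (17.9 ± 7.50 against 3.97 ± 1.77) higher. Nfkb1 (55.3 ± 7.27 against 149.04 ± 16.9) and Nfkb2 (19.1 ± 4.74 against 40.2 ± 7.69) were lower, which made 4 of 8 members beside 31.6% of all genes tested (16.8% higher, 14.7% lower). The plates of random T wells, at 35.7, 43, 32.6 and 49.7 CPM of Nfkb2, lay closer together than those of target T wells.

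For HPC against leukemia the random wells called 4 of 8 members, Nfkb2, Rel, Relb and Nfkbia, all higher in HPC, beside 27.8% of all genes tested (16% higher, 11.8% lower). Nfkbia gave 66.2, 29.95, 41.2 and 33.8 CPM in HPC and 10.3, 15.6, 14 and 12.2 in leukemia (log2 difference 1.59, plates 0.90 to 2.57). Relb was at 10.2 ± 1.14 and 2.78 ± 2.21 CPM (1.84, plates 0.94 to 3.44). Without plate 1 Nfkbia alone met the rule. The Nfkb2 call ended without any 1 of 4 wells, and that of Relb without any 1 of 19, its mean being near the limit of 10 CPM. Nfkbiz, at 17.9 CPM in HPC and 9.15 in leukemia, missed 2-fold here (0.86, plates 0.25 to 1.99). Immediate early genes, which handling or stimulation switches on within minutes, summed to 1163.3 to 1319.7 CPM over the plates of target HPC wells and 1441.3 to 2427 over those of random HPC wells. The sums were 605.9 to 681.6 CPM in target leukemia and 252.3 to 606.4 in target T wells. All 21 genes of the list had a count in HPC wells and also in target T wells, and 17 had one in target leukemia wells. The part of these genes in the HPC values was not tested.

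The wider pathway was read from a list of genes by role. In T against leukemia target wells 7 higher and 7 lower of 47 that reached 10 CPM were called, near the share of 14.8% higher and 12.2% lower of all genes tested, with a median log2 difference of 0.24 beside 0.01 over all genes. The Tnf receptor gene Tnfrsf1a was at 40.5 CPM in T and 0.242 in leukemia. T wells held no count of Prkcq, a kinase of T cell receptor signalling (87 counts in leukemia, at least 32.6-fold lower with a floor of 3 counts over the group), of the ligand gene Cd40lg (58 counts, at least 21.7-fold lower) or of the adhesion gene Icam1 (45 counts, at least 16.9-fold lower). The costimulatory receptor gene Cd27 was at 0.0829 CPM in T and 117.04 in leukemia.

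HPC wells had more pathway genes called higher than lower: 13 higher and 4 lower of 55 against leukemia, beside 13.1% higher and 12.7% lower of all genes tested, and 14 higher and 5 lower of 56 against T, beside 13.2% higher and 15.3% lower of all genes tested. The median log2 differences were 0.12 and -0.15, beside -0.12 over all genes in both comparisons. Among known NF-kB targets 6 higher and 1 lower of 14 were called against leukemia and 6 higher and 0 lower of 16 against T, to be read beside the same shares of all genes. The chemokine gene Ccl3 led both, at 468.7 CPM in HPC, 0.845 in leukemia and 2.84 in T. Ccnd1, the cyclin D1 gene, was at 87.5 CPM in HPC and 0.211 in leukemia and was not counted in T. Against leukemia the next were the nucleic acid receptor gene Tlr7 (28.9 against 0.0605 CPM), the ligand gene Lta (31.3 against 0.253), Tnfrsf1a (28.6 against 0.242) and the survival gene Ier3 (50 counts against 0). Against T they were Cd27 (61.3 against 0.0829 CPM), Tlr7 (28.9 against 0.210), Icam1 (at least 28.6-fold higher) and the survival gene Bcl2 (167.3 against 8.89).

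**Figure D2:**
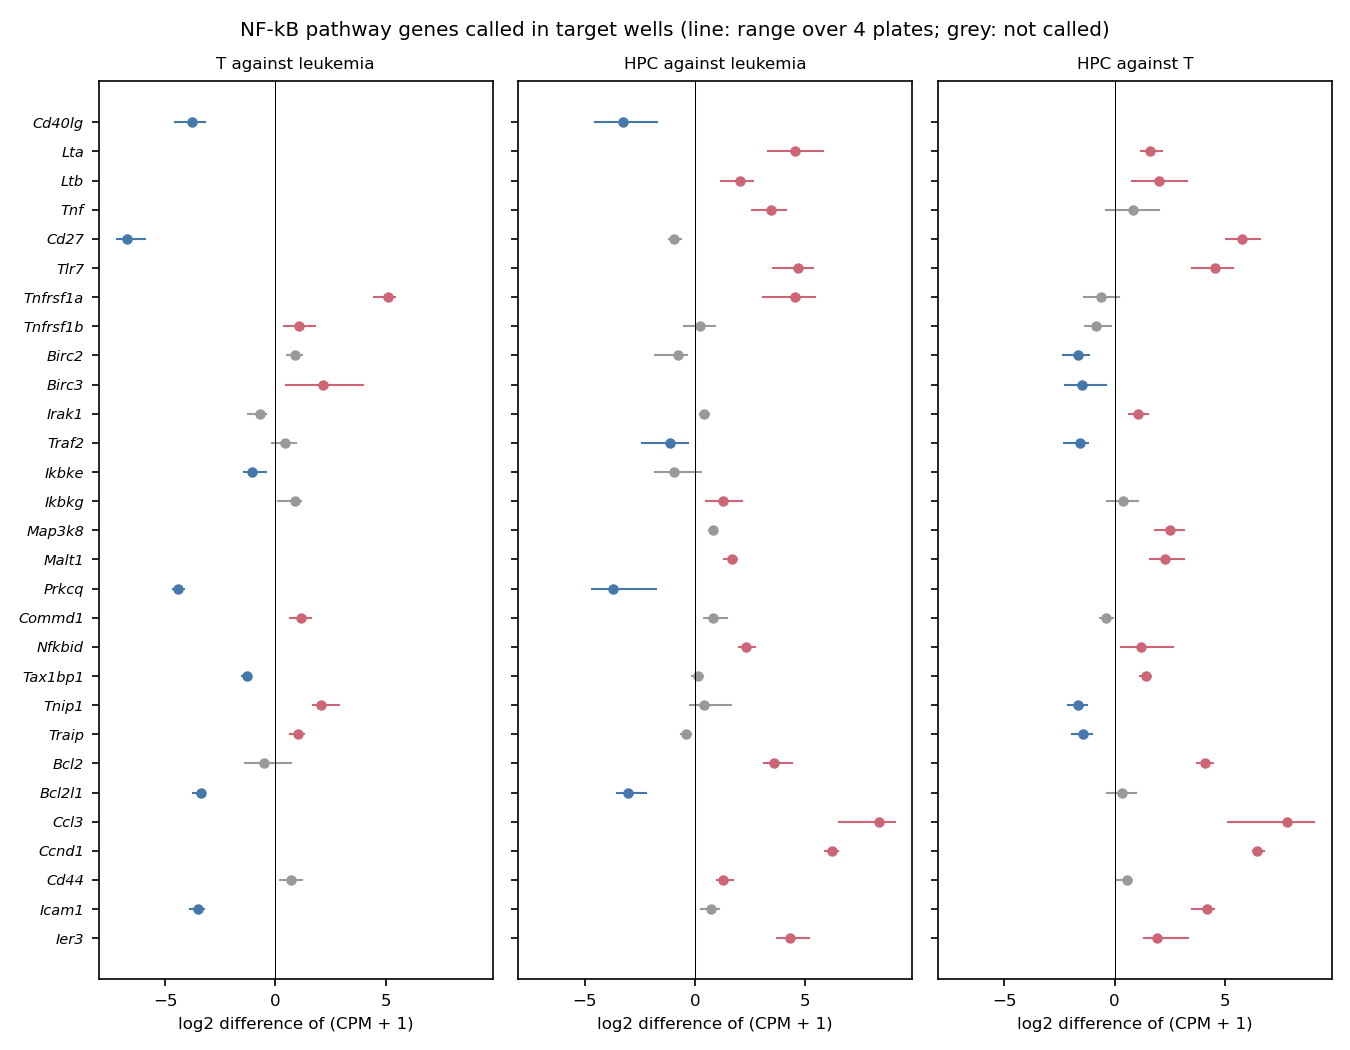
Log2 difference of CPM + 1 (horizontal axis) of pathway genes called in at least 1 comparison of target wells, with the range over 4 plates. Red is called higher, blue called lower and grey not called, and genes under 10 CPM in both groups have no point. Ccl3, Ccnd1 and Tlr7 of HPC wells lie far above both other lines, and Cd40lg, Prkcq and Icam1 are low in T against leukemia.

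Within the T line Nfkb2, Relb and Nfkbia were each higher on target plates 1 and 2 than on plates 3 and 4. Over the same 4 plates Rela gave 32.7, 30.3, 37.7 and 26.5 CPM, in no such order. Nfkbib gave 37.8, 37.8, 27 and 31.2 CPM, higher on plates 1 and 2 as well but by less. Birc3, an NF-kB target that encodes a ubiquitin ligase and was chosen here after its values were seen, gave 27.5, 30.3, 7.55 and 17.3 CPM. The order was not confined to T wells: Nfkb2 of leukemia wells was also higher on target plates 1 and 2. Nfkb2 of HPC wells and Nfkbia of leukemia and HPC wells were not so ordered. The FACS plates differed as well: among T-profile wells on plates 1 and 2, Nfkb2 was at 63.2 and 31.3 CPM, Relb at 34.8 and 8.06 and Nfkbia at 68.4 and 26.9, with Rela at 41.3 and 35.8 and Nfkbib at 28.4 and 22.4. Every one of the 5 was higher on FACS plate 1, and without the well of most Relb counts the plate 1 value of Relb was 22.6 CPM. In HPC-profile wells Nfkbia was at 122.2 and 35.7 CPM on the FACS plates. In leukemia-profile wells it was at 49.1 and 19.2 CPM, where a single well held 17 of the 40 counts of plate 1, which gave 29.1 CPM without it. The mean T well held 37543, 37169, 38639.6 and 45671 counts on the 4 target plates and 24227 and 34889.8 on the FACS plates. Summed immediate early genes were at 347.99, 606.4, 252.3 and 298.2 CPM on the target T plates. The part of depth and of these genes in the gap was not tested.

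**Figure D3:**
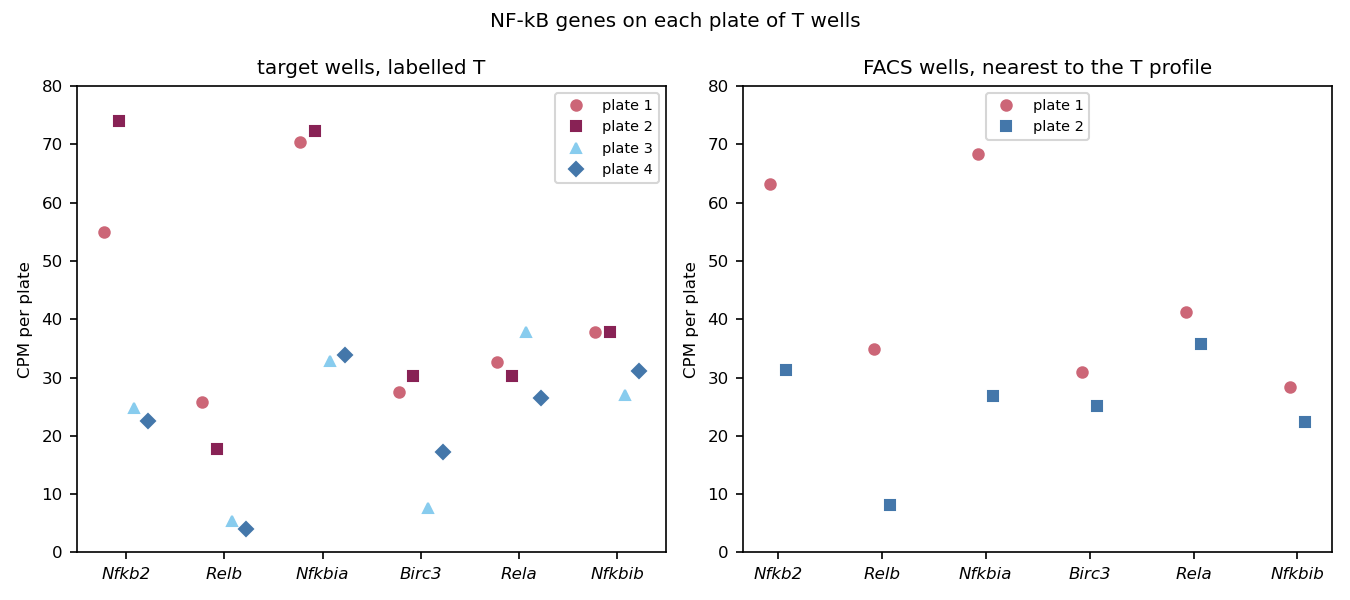
CPM (vertical axis) of 6 NF-kB genes on each plate of T wells, for the 4 target plates and the 2 FACS plates, 1 point per plate. Nfkb2, Relb and Nfkbia are higher on target plates 1 and 2 and on FACS plate 1, and Rela and Nfkbib differ less between plates.

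Time-lapse and random wells share no plate in any profile, so imaging and the plate cannot be told apart. After time-lapse imaging Nfkbia was called higher than in random picks in leukemia-profile wells. All 16 time-lapse plates there (16.9 to 216.2 CPM, median 55.7, against 10.3 to 15.6) lay above the 4 random plates, a log2 difference of 1.98, for 1 of 6 members beside 0.958% of all genes tested (0.544% higher, 0.414% lower). In T-profile wells 13 of 16 plates lay above the random range (35.8 to 234.9 CPM, median 80.1, against 26.2 to 40.4), and in HPC-profile wells 12 of 16 (31.5 to 303.7 CPM, median 85.1, against 29.95 to 66.2). Those groups overlap, and the log2 differences of 1.24 and 1.10 were not called. How many of all genes lay above the random range on as many plates was not counted. Plate 10 was the highest in all 3 profiles, at 216.2, 234.9 and 303.7 CPM. On it the immediate early genes summed to 3385 CPM in T-profile and 2274 in HPC-profile wells, the highest of 16 plates in both, and to 452.4 in leukemia-profile wells, the lowest of 16. Leaving out any 1 plate kept the leukemia call, but it ended without any 1 of 3 wells of plate 5, which held 10 counts in all and gave 16.9 CPM, or 12.4 without its top well. Single wells also carried plate 7 of the leukemia profile (100.2 CPM, 18.8 without 1 well) and plate 9 of the HPC profile (155.6 and 61.8). Rn45s took a mean of 13.7% of the counts over time-lapse and 9.45% over random plates of leukemia-profile wells, 12% and 8.72% in T-profile and 14% and 9.83% in HPC-profile wells. The calls of members stayed the same with Rn45s left out of the total. Progenitor markers summed to 26.04 to 226.7 CPM over the time-lapse leukemia plates, against 27.9 to 39.4 over the random ones. T cell markers summed to 929.7 to 1669.9 CPM, against 1419.6 to 1649.03. The part of a different cell make-up in the Nfkbia values of leukemia-profile wells was not tested.

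In T-profile wells Nfkb1 was called lower. All 16 time-lapse plates (18.6 to 76.3 CPM, median 46.2, against 132.5 to 172.4) lay below the 4 random plates, a log2 difference of -1.72. Nfkbiz was called higher (7.75 to 25.8 CPM, median 16, against 2.38 to 6.50; 1.80), though not when each well was given equal weight (1.65) or when either of a pair of plate 4 wells was left out. These were 2 of 7 members, beside 15.3% of all genes tested (6.99% higher, 8.26% lower). Rela and Nfkbib also lay above the random range on all 16 plates but under 2-fold, with means of 62.5 against 34 CPM (log2 difference 0.82) and 57.3 against 33.3 (0.77). How many of all genes did so without the 2-fold limit was not counted. Nfkb1 was at 86 against 93.3 CPM in leukemia-profile and 56.3 against 55.3 in HPC-profile wells. The difference between profiles was not tested.

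The time-lapse T-profile wells differ widely from other T wells, so their name means no more than the nearest of 3 profiles. T cell marker genes summed to 1620.5 to 2366 CPM over their plates, against 2531 to 2788 in random T wells, and they held a median of 58920.5 counts per well against 44508. In the pathway list 11 higher and 4 lower of 53 were called, beside 6.99% higher and 8.26% lower of all genes tested. Tnip3, which encodes a partner of A20, was at 66.7 CPM and had no count in random T wells (at least 123.4-fold higher), and Cd27 was at 27.2 against 0.297 CPM. The targets Cxcl10 (21.7 against 0.702 CPM), Ier3 (33.6 against 4.03) and Irf1 (27.9 against 5.005) were higher and Bcl2 (2.41 against 10.4) lower. The part of a different cell make-up in the Nfkb1 and Nfkbiz values was not tested.

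In HPC-profile wells none of 8 members was called after time-lapse imaging, beside 6.47% of all genes tested (2.06% higher, 4.41% lower). Rela lay above the random range on all 16 plates (63.8 to 129.9 CPM, median 85.9, against 41.5 to 58; log2 difference 0.81). Tnfaip3 lay below it on 15 of 16 plates, with means of 3.18 against 8.56 CPM, under the limit of 10. How many of all genes left the random range on as many plates was not counted. In the pathway list 1 higher and 4 lower of 63 were called: the kinase gene Ripk1 higher (84.7 against 41.3 CPM), and Ccnd1 (4.10 against 77.9), the chemokine gene Ccl4 (17 against 151.04), Bcl2 (62.3 against 201.8) and the adaptor gene Card9 (4.37 against 13.3) lower. Of the immediate early genes 0 higher and 4 lower of 18 were called, with Fosb at 3.06 against 139.6 CPM. T cell markers summed to 96.7 to 484.4 CPM over the time-lapse HPC plates, against 85 to 114.5 over the random ones. Progenitor markers summed to 2234 to 4066 CPM, against 2738 to 3179. The part of a different cell make-up in the HPC-profile values was not tested. In leukemia-profile wells 1 of 45 pathway genes was called, Cd27, lower at 65.9 against 144.8 CPM.

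**Figure D4:**
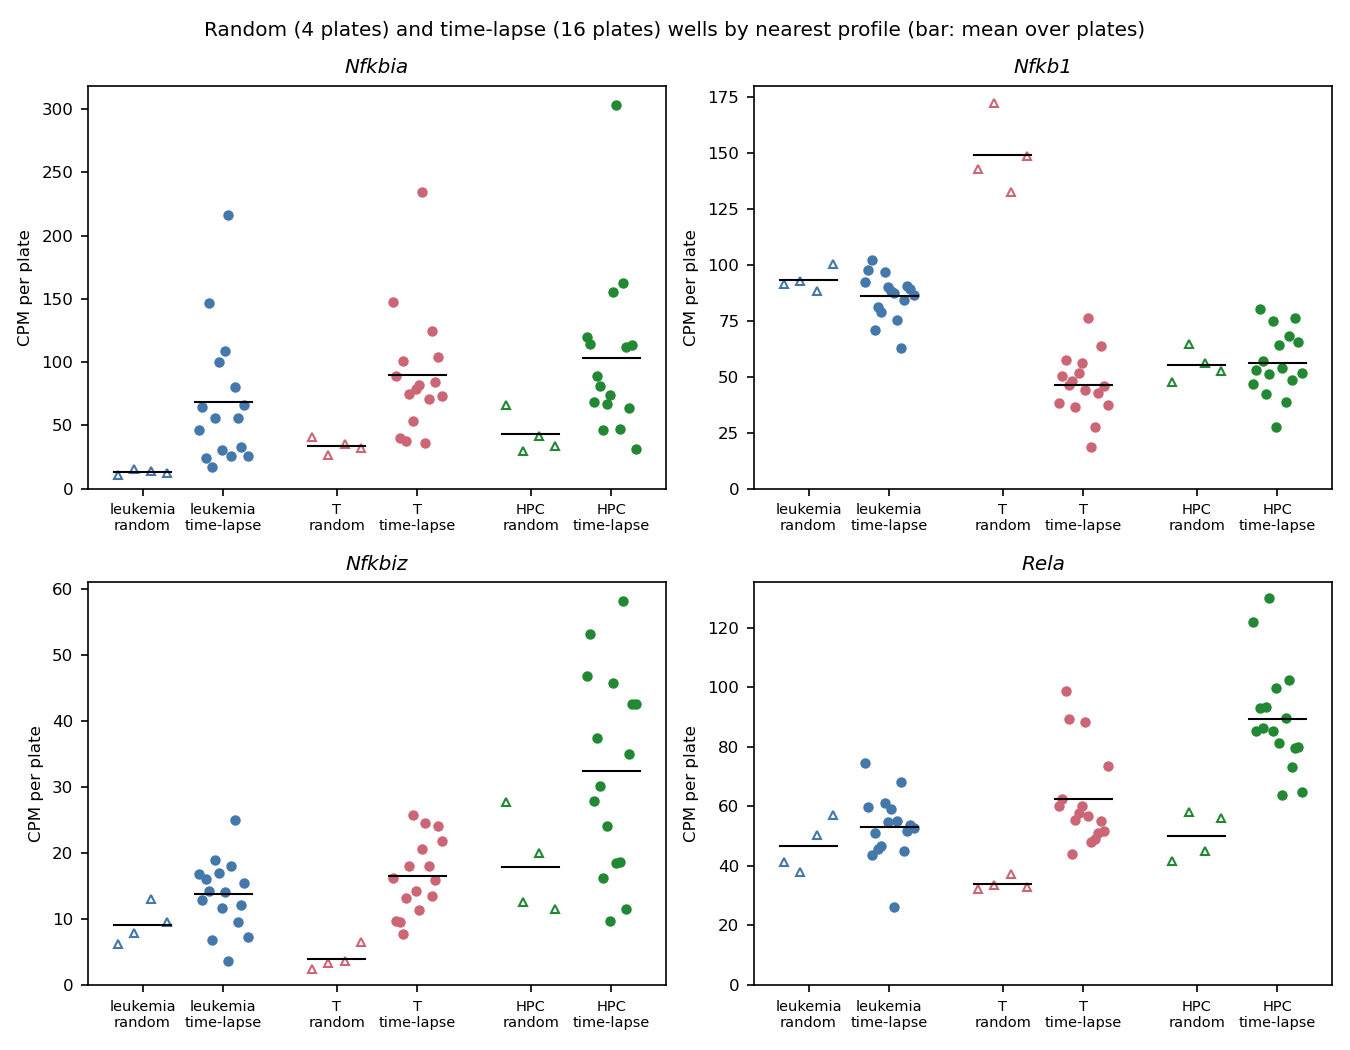
CPM per plate (vertical axis) of Nfkbia, Nfkb1, Nfkbiz and Rela in random (open triangles, 4 plates) and time-lapse wells (filled circles, 16 plates) by nearest profile, with bars at the mean over plates. Nfkbia of leukemia-profile wells lies wholly above the random plates and Nfkb1 of T-profile wells wholly below them.

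Image-based picks of a named type and FACS share no plate, and with 2 FACS plates the method and the plate cannot be told apart. Picked wells stand by their label, which takes in the 3 HPC wells of another profile, and sorted wells by profile. Rn45s, a ribosomal RNA gene, took 10.1 to 14.6% of the counts over the plates of picked HPC wells and 5.99 to 6.18% over those of sorted ones, 9.49 to 12.8% and 5.48 to 6.71% in leukemia and 9.13 to 11.8% and 4.07 to 5.59% in T wells. No plate of one method overlapped the other in this share, and the members called were the same with Rn45s left out of the total. In HPC wells Nfkbiz gave 4.53 and 5.95 CPM sorted and 23.7 to 38.2 picked (log2 difference of picked against sorted 2.21, plate pairs 1.83 to 2.83). Rel gave 6.79 and 3.57 CPM sorted, on 6 counts, and 10.6 to 20.01 picked (1.42, 0.57 to 2.20). Nfkb2 was the reverse, at 40.7 and 27.4 CPM sorted and 7.04 to 12.7 picked (-1.56, -2.38 to -1.05). These 3 of 8 members stood beside 5.69% of all genes tested (2.21% higher, 3.49% lower). The same 3 were called without the 3 wells of another profile, and the Rel call ended without a single well of target plate 4 that held 3 counts. Random HPC wells lay between them on average, with 17.9 CPM of Nfkbiz and 19.1 of Nfkb2.

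Immediate early genes differed between the methods too, with 5 higher and 1 lower of 16 in picked HPC wells, Fosb at 57.2 against 4.05 CPM and Atf3 at 131.6 against 10.2. Their part in the Nfkbiz and Rel values was not tested. In the pathway list 1 higher and 6 lower of 58 were called, beside 2.21% higher and 3.49% lower of all genes tested: Ccl3 higher in picked wells (468.7 against 226.7 CPM), and among the lower ones the cytokine gene Tnf (10.8 against 57.4), the growth regulator Myc (35.7 against 137.9), the receptor gene Tlr2 (3.36 against 10.6), Birc3 (6.23 against 19.5) and the kinase adaptor gene Tab1 (10.4 against 28.4). In leukemia wells Nfkb2 was the 1 of 5 members called, 13.5, 13.5, 6.07 and 10.4 CPM picked and 30.7 and 17.5 sorted (log2 difference -1.08), beside 1.64% of all genes tested (0.809% higher, 0.835% lower). It lost the call without target plate 3 (-0.85) or FACS plate 1 (-0.70), and without any 1 of 3 sorted wells. In T wells none of 6 members was called, beside 2.06% of all genes tested (1.27% higher, 0.782% lower), and Nfkb1 was at 147.3 ± 9.997 CPM picked (n = 4 plates) and 141.2 and 173.8 sorted.

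Between the lines, FACS wells by profile differed in part from target wells. Nfkb1 was lower in HPC than in T here too, with a log2 difference of -1.60 (plates -1.78 to -1.42), where the FACS labels gave -0.48. For Nfkbia, HPC against leukemia gave 1.08 (plates 0.86 to 1.30). The Nfkb2 differences called in target wells stayed under 2-fold in FACS wells. Nfkb2 was at -0.41 (plates -0.62 to -0.19) for HPC against T and 0.91 (plates 0.80 to 1.02) for T against leukemia. Nfkbiz stayed under the limit of 10 CPM in each FACS profile and could not be compared by the rule. It had a count in 7 HPC-profile, 9 leukemia-profile and 5 T-profile wells, with at most 1 count per well. On these few counts its log2 difference was 0.05 (plates -0.60 to 0.70) for HPC against leukemia. For HPC against T it was 0.94 (plates 0.60 to 1.27). Rel had 6 counts in HPC-profile, 1 in leukemia-profile and 1 in T-profile FACS wells, too few to compare.

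PBMC wells held far fewer counts, 1013.98 to 7991.91 each with a median of 2147. Over the 8 plates Nfkbia gave 450.02 to 833.7 CPM, Nfkb1 62.8 to 251.95, Rela 42.6 to 251.95, Relb 62.8 to 131.3 and Nfkbiz 42.6 to 111.98. Nfkb2 (12.6 to 112.5 CPM), Tnfaip3 (14.2 to 106.5), Nfkbib (28 to 70.9) and Rel (0 to 84.4) rested on 54, 50, 37 and 33.5 counts in all. Clustering without the NF-kB and immediate early genes gave T-like wells, the largest cluster (3 to 28 a plate), 93 B-like wells, 30 NK-like wells and 81 wells left unnamed.

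The unnamed cluster holds T cell receptor genes (Cd3d, Cd3e and Trac), but its top genes by fold include Scgb1a1 and S100a9 of other cell types. S100a9 came from 1 well and Scgb1a1 from 6, whereas Cxcr6 had a count in 66.7% of its wells and Rora in 63%, against 0.741% and 2.96% of T-like wells. Its wells were deeper, with a median of 2797 counts against 2182 in T-like, 1854 in B-like and 1662 in NK-like wells. All 17 T cell markers had a count in it, at 5017.2 CPM summed, as in T-like wells, at 7222.5 CPM. Named from its markers alone, without the condition on top genes given under processing, it would be T-like. All 14 monocyte markers had a count in it, at 2555 CPM summed, and 7 of 14 in T-like wells, at 45.5 CPM. A monocyte marker was counted in 42% of its wells and an NK marker in 58%, against 8.89% and 8.15% of T-like wells. Much of the cluster's monocyte sum came from S100a9 (785.9 CPM, 1 well) and S100a8 (738.1 CPM, 2 wells). Without that pair it was 1030.6 CPM. Of the NK markers 10 of 13 had a count in the cluster, at 758.9 CPM summed, and 4 of 13 in T-like wells, at 48.8 CPM.

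B-like wells had more Rel and Nfkbiz than T-like wells. Rel was at 70.8 CPM in B-like (13.5 counts) and 26 in T-like wells (8 counts), a ratio of 2.72 (1.11 to 7.77), where the brackets give the exact 95% interval for counting error. Nfkbiz was at 110.2 (21 counts) and 48.8 CPM (15 counts), a ratio of 2.26 (1.11 to 4.71). Here a call needed 2-fold with the interval off 1, 10 CPM and 10 counts, and these were 2 of 8 members tested, beside 22.1% of all genes tested (14.4% higher, 7.7% lower). The call of Rel ended when any 1 of 11 wells was left out, and that of Nfkbiz for any 1 of 3. Nfkbia was at 309.5 CPM in B-like and 572.2 in T-like wells, a ratio of 0.541 (0.396 to 0.730) that missed 2-fold, and Nfkb1 at 159.99 and 84.5 CPM, a ratio of 1.89 (1.06 to 3.28). With the unnamed cluster counted as T-like, a setting chosen after seeing the data, Nfkbia and Tnfaip3 were called lower in B-like wells and Rel and Nfkbiz were not called.

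Tnfaip3 was the member that differed most between the unnamed cluster and T-like wells. It had 40 counts in the 81 wells (166.3 CPM, exact Poisson interval 118.8 to 226.5), 6 in T-like wells (19.5 CPM), 4 in NK-like wells (72.3 CPM) and 0 in B-like wells, which allows up to 15.7 CPM at a floor of 3 counts. The ratio to T-like wells was 8.53 (3.59 to 24.6). A count was found in 29.6% of unnamed wells (19.99 to 40.8) and 4.44% of T-like wells (1.65 to 9.42). Thinned to 1500 counts, with 5 and 17 wells left out, the shares were 22.4% (13.6 to 33.4) and 4.24% (1.39 to 9.61).

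Nfkb1 was at 187.1 and 84.5 CPM (ratio 2.21, 1.34 to 3.74) in the unnamed cluster and T-like wells, Nfkbiz at 99.8 and 48.8 CPM (ratio 2.05, 1.03 to 4.20) and Nfkbia at 931.5 and 572.2 CPM (ratio 1.63, 1.33 to 1.99). Nfkb1, Nfkbiz and Tnfaip3 were called higher, 3 of 9 members beside 15% of all genes tested (9.52% higher, 5.43% lower). The Nfkbiz call ended when any 1 of 17 wells was left out. The part of the cluster's depth and of its monocyte and NK genes was not tested. Since the same clustering formed both groups, without these genes but from the same cells, the ratios describe the clusters.

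**Figure D5:**
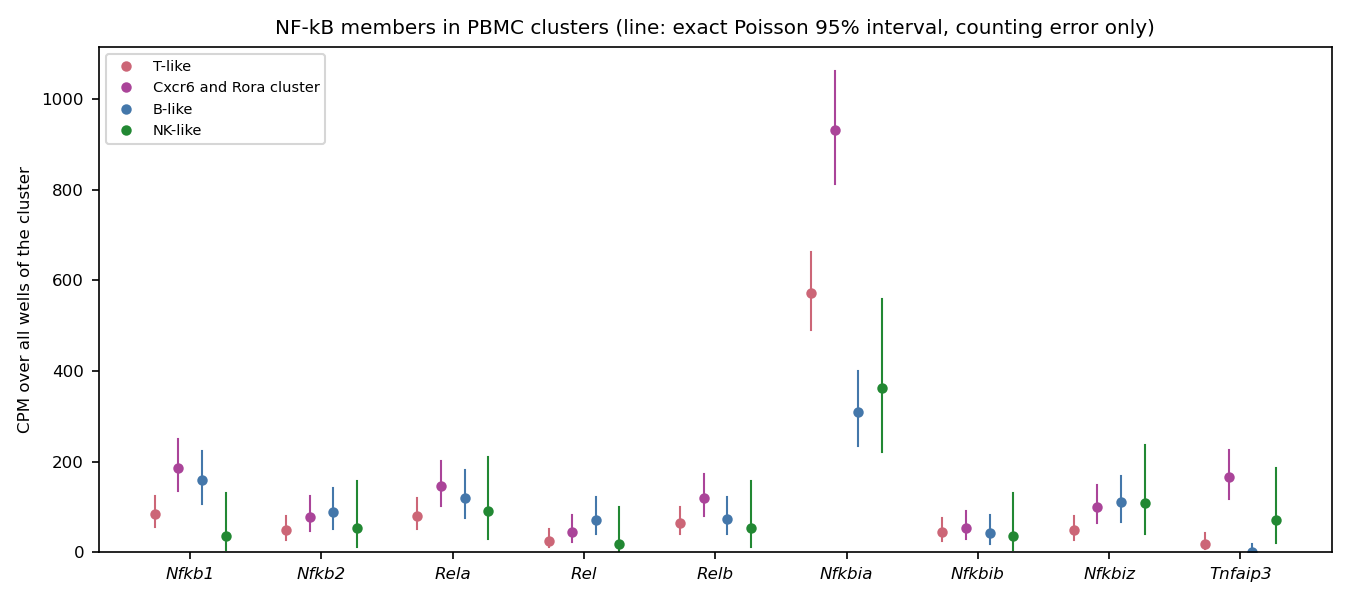
CPM (vertical axis) of the 9 members over all wells of each PBMC cluster, with exact Poisson 95% intervals for counting error. Nfkbia and Tnfaip3 are highest in the unnamed cluster, marked Cxcr6 and Rora in the key, and Tnfaip3 has no count in B-like wells.

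In the wider pathway list 15 higher and 4 lower of 54 were called in B-like against T-like wells, beside 14.4% higher and 7.7% lower of all genes tested, with a median log2 ratio of 0.66 beside 0.18 over all genes. Tnfrsf13c, the BAFF receptor gene, had 73 counts in B-like and none in T-like wells (at least 39.3-fold higher), and the receptor gene Cd40 29 and none (at least 15.6-fold higher). Gadd45b, a stress-response target, was at 167.9 and 19.5 CPM. Malt1, which encodes a protease of antigen receptor signalling, had 11 and 2 counts, a ratio of 8.87 (1.94 to 82.4), and the adhesion receptor gene Cd44 10 and 1, a ratio of 16.1 (2.30 to 700.2). Ikbke, which encodes a kinase related to the IkappaB kinases, had 1 count in B-like and 74 in T-like wells (T-like over B-like ratio 45.9, 7.98 to 1836).

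The genes most like 8 of the members over the 12 target pools (4 plates of 3 lines) were picked from 4060 genes by Pearson's r of log2 (CPM + 1). Tnfaip3, under 10 CPM in all 3 lines, was left out. The pools share plates and differ mostly by line, so r and Spearman's rho, given in brackets in that order, are descriptions. For Nfkb1 they were Cd82 (0.97, 0.88), Gnl3l (0.96, 0.94) and Ero1l (0.96, 0.96), and for Nfkb2 Eif1 (0.98, 0.97), Rps4x (0.96, 0.87) and Cyb5r1 (0.95, 0.80). Rel was most like Fbxw4 (0.96, 0.88), Kdm2b (0.96, 0.87) and Ric8a (0.96, 0.89). Nfkbiz was most like Marcksl1 (0.98, 0.92), Ube2r2 (0.97, 0.97) and Lgmn (0.97, 0.94), and Nfkbia most like Vaultrc5 (0.93, 0.85), Prex1 (0.92, 0.91) and H1f0 (0.91, 0.87). Relb was nearest to Xrcc6 (0.83, 0.81), Edem1 (0.82, 0.64) and Cdca3 (0.81, 0.82), and Nfkbib to Ttc3 (0.87, 0.71), Selenos (0.85, 0.74) and Btf3 (0.83, 0.79). Of the 8, Rela had the nearest genes of lowest r, Psmd8 (0.77, 0.74), Atp6v0c (0.75, 0.69) and Cox7c (0.74, 0.78).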

How the data were processed

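RNA of single wells was primed with oligo-dT carrying a molecular barcode, per the labels' protocols. The values are expected counts of molecules per gene and well, which the authors deposited unscaled. Per the submitters' processing notes, bcl2fastq and STAR were used with mm10, and the sources used here give neither the counter nor the annotation. Of positive values 5.31% (cell lines) and 5.15% (PBMC) were not whole. PBMC wells under 300 genes (7) were left out.

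Counts were summed per plate and group (plates of 5 or more wells). Random, FACS and time-lapse wells took the target type of highest Spearman correlation over 4110 genes, without the members, pathway and immediate early lists. PBMC wells were clustered with scanpy 1.11.5 (2000 variable genes, 30 components, 15 neighbours, Leiden resolution 1). A cluster was named from at least 3 markers of 1 type, unless its top 10 genes held more markers of another, a condition added after the data were seen. The rule within plates was tested on simulated counts with no spread between plates beyond counting error. The interval of ratios was tested on simulated counts too. The rule of no overlap between groups that share no plate was not simulated. Named genes are the members, up to 6 called pathway genes per comparison by size, and the 3 genes of at least 50 CPM most like each member. Genes outside this rule (Fosb, Atf3, Birc3 by plate, Cxcr6, Rora, S100a8, S100a9, Scgb1a1) were named after their values were seen. For 1 gene of the pathway list, results are not reported here, though it counts in the list's totals. The members and lists were chosen with earlier results of these data known. Intervals of CPM and of ratios cover counting error only. Those of shares of wells take each well as 1 draw from its group. None covers the spread between plates, cultures or animals.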

Additional observations from a re-analysis of the deposited data

Results flagged for a closer look

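Nfkb2 in HPC target wells was at 7.04 CPM on plate 2 and at 11.9, 12.7 and 12.1 CPM on the other 3 plates, a gap large for the range of 4 plates. It was the 1 case among 63 sets of plate values so examined, and chance alone gives about 1 in 20.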

How the results depend on the processing

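In no setting did a called difference of a member change sign, which the rule largely fixes in advance. A call needs 1 direction on every plate or no overlap of plates, so leaving out a plate could not reverse it. The fold and CPM limits do not enter the difference. Shares of wells with a count depend on depth: on thinning, 85 left the interval of the unthinned share and 68 stayed within it. Counts of members called moved by over 1.5 times in these settings. At 1.5-fold they were 4 in place of 2 for HPC against leukemia (target wells), time-lapse T-profile wells and B-like against T-like wells, and 1 in place of 0 (Rela) for time-lapse HPC-profile wells. For T against leukemia in random wells they were 4 in place of 2 (Relb and Nfkbiz added) without Rn45s in the total, with a filter of 1 CPM and as a mean over wells. For target against FACS in leukemia-profile wells they moved from 1 to 3 with the 1 CPM filter, 0 with a pseudocount of 5, and 2 as a mean over wells or with FACS wells by label. In T-profile wells the 1 CPM filter gave 1 (Rel) in place of 0. The mean over wells left 1 (Nfkb1) of 2 in time-lapse T-profile wells. A looser fold or filter can add calls over all genes too. The shares of all genes called under each setting of this section are not given, so its counts describe the members only. Leaving out 1 plate at a time gave 1 to 3 calls for T against leukemia, 2 to 3 for HPC against leukemia and 4 to 4 for HPC against T in target wells, and 2 to 4, 1 to 5 and 3 to 4 for these in random wells. It gave 1 to 1, 2 to 3 and 0 to 0 for time-lapse leukemia, T and HPC profiles, and 0 to 3, 0 to 1 and 3 to 5 for target against FACS. Without target plates 1 and 2, a setting chosen after seeing the data, T against leukemia called 1 member, Nfkb2. Without FACS plate 2, Relb and Nfkbia were also lower in target HPC wells. Random plate 1 left out added Relb and Nfkbiz to T against leukemia. The cause of these moves was not tested. In PBMC the members called changed with the clusters: a minimum of 500 genes per well called Rel higher and Nfkbia and Tnfaip3 lower in B-like wells, and Leiden resolution 0.6 called Nfkb1 and Rel higher. Rel rested on 33.5 counts over all PBMC wells, so depth limits its differences there. Left out 1 at a time, settings chosen after seeing the data, wells ended no call of target wells between lines. No paired analysis was possible because no test was run: lines of target and random wells were compared within each plate, and well numbers only name wells.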
